A study of Mus musculus with 933 samples.

Results

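The 9 genes described here are targets and components of the integrated stress response: Atf4, Atf3, Ddit3, Ddit4, Chac1, Trib3, Asns, Psat1 and Sesn2. They were chosen by name, as the rows of each table that carry these symbols, and all 9 were present among the 23845 genes listed in every table. Their abundance was measured in 933 single mouse embryos of the FVB strain, made by intracytoplasmic sperm injection (ICSI, the injection of 1 sperm into an egg) and cultured in KSOM medium. Sperm were taken from 3 places on their way out of the male: the testis, the caput (the head of the epididymis, which they enter first) and the cauda (its tail, which holds mature sperm). Embryos were harvested as 2-cell embryos at 18, 24 and 28 h after ICSI, as 4-cell embryos, as 8-cell embryos, as morulae or as blastocysts. All embryos of cauda and testis sperm and part of those of caput sperm received no RNA. Other caput zygotes were injected 3 h after ICSI with RNA that the labels name GFP, EpiM small RNA, EpiM miRNA or EpiM tRF (a tRF is a piece cut from a transfer RNA). There were 33 groups, of 8 to 42 embryos each, in 12 tables, and embryos of 1 table that share a stage and time are called a cohort below. Each was sequenced whole, so fewer cells of a type and less RNA per cell cannot be told apart. The labels do not say which embryos came from separate males or females, so the p-values measure the spread between these embryos.

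In the integrated stress response, any of 4 kinases phosphorylates the translation initiation factor eIF2, which lowers protein synthesis in general while the mRNA of the transcription factor ATF4 is translated more. The kinases respond to amino acid shortage, unfolded protein in the endoplasmic reticulum, double-stranded RNA and haem shortage or mitochondrial stress. ATF4 then turns on genes of amino acid synthesis and uptake, of tRNA charging, and feedback genes that restrain the response. Because ATF4 is controlled mainly through translation, the mRNA of Atf4 is not a measure of the protein, which was not measured here.

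Values are in TPM, the transcripts of a gene per 1000000 transcripts of its library, which keeps no trace of depth. Between 4864 and 12629 genes per embryo reached 1 TPM (median 10627). Of the 933 libraries, 2 listed under 80% of the median number of genes of their table, 1 blastocyst of caput sperm with EpiM small RNA and 1 morula of cauda sperm. A further 4 libraries had a profile that went against their stage label. In a check over 11323 genes, 1 of the 24 cauda 2-cell embryos of 28 h lay nearer to the mean profile of 18 h embryos (Pearson's r 0.945) than to that of its own time (0.753). Of the 8-cell embryos, 1 of 25 from cauda sperm and 2 of 28 from caput sperm had an r of at most 0.0597 with the mean 8-cell profile, and 1 of these caput embryos summed 15483 TPM over 4 trophectoderm markers. Several differences at 28 h and at the 8-cell stage are therefore given with and without these libraries. Summed markers of cumulus and granulosa cells reached at most 12.4 TPM in any embryo, and those of spermatids at most 43.3 TPM.

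ATF4 binds, together with a C/EBP family partner, a composite element known as the C/EBP-ATF response element or CARE. The letters TGATGNAA were searched on both strands in the 250 bases upstream of each RefSeq transcript start (build GRCm38.p6), where N is any base. The 9 genes all had a promoter in this table, and 3 of them held the motif, against 1056 of 27025 genes (3.45% of 32851 promoters). They were Atf3, a stress-induced repressor and activator of the same bZIP class as ATF4, Chac1, which degrades glutathione, and Asns, which makes asparagine. The cAMP response element TGACGTCA, present in 1.55% of promoters, was found in none of the 9. The motif began 110 bases before the transcript start in Atf3 (chr1:191183334-191183583, minus strand), 193 bases before it in Chac1 (chr2:119350992-119351241, plus strand) and 23 bases before it in Asns (chr6:7693210-7693459, minus strand). The upstream 250 bases of these genes are shown 5′ to 3′ with the motif in capitals, which reads TTGCATCA where it lies on the opposite strand. That of Trib3 (chr2:152344061-152344310, minus strand), a pseudokinase that binds and restrains ATF4, is shown beside them because, of the other 8 genes, Trib3 varied most closely with Atf4 in blastocysts, and these letters are not in its window.
Atf3: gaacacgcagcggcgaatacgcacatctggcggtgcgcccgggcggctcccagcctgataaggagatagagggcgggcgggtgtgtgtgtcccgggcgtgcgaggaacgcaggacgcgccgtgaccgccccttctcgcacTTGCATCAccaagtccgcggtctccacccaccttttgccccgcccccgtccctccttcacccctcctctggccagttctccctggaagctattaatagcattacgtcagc
Chac1: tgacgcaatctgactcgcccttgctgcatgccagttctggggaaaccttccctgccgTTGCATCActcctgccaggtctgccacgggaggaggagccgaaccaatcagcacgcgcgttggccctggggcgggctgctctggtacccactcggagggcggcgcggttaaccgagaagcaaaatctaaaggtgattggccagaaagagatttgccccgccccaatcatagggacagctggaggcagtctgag
Asns: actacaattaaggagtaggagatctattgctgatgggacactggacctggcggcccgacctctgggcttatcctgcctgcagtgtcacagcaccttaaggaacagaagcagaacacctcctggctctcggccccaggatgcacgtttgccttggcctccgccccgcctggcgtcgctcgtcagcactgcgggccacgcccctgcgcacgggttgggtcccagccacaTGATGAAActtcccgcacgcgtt
Trib3: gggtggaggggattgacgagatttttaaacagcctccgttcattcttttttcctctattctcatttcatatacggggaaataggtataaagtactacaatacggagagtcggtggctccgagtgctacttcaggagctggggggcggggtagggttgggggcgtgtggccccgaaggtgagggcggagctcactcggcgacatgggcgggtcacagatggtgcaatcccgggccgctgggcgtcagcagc

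The levels across stages are described in embryos of cauda sperm. Atf4 mRNA was abundant throughout, with cohort medians of 239 TPM at 18 h, 253 TPM at 28 h, 164 to 202 TPM in 3 cohorts of 4-cell embryos, 229 TPM at the 8-cell stage, 163 to 229 TPM in 2 cohorts of morulae and 94.1 to 181 TPM in 5 cohorts of blastocysts. The other transcription factors were lower. Atf3 reached 1 TPM in 19 of 25 embryos at 18 h, in 1 of 24 at 28 h, in 1 of 88 at the 4-cell stage, in 19 of 65 morulae and in 63 of 180 blastocysts. Ddit3, which encodes CHOP, a factor tied to cell death under lasting stress, had a median of 62.3 TPM at 18 h, 18.0 TPM at the 8-cell stage and 28.6 to 80.5 TPM in blastocysts.

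The effector genes differed more between cohorts. Sesn2 encodes sestrin 2, which restrains the growth kinase complex mTORC1 when leucine is short. Its median was 12.1 TPM at 18 h, 73.1 TPM at 24 h and 358 TPM at 28 h, then 113 to 169 TPM in 4-cell embryos and 35.4 to 80.6 TPM in blastocysts. Ddit4 encodes REDD1, another inhibitor of mTORC1. Its medians were 54.3 to 100 TPM at the 4-cell stage and 47.3 to 75.8 TPM in morulae, and 2.79 to 8.58 TPM in blastocysts. Trib3 went from 2.21 TPM at 18 h to 67.4 TPM at 28 h, and its medians in later cohorts lay between 2.89 and 38.6 TPM. Chac1 stayed low, with medians of 0 to 4.90 TPM in all cohorts but 1, the second morula cohort at 18.0 TPM.

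The enzymes of amino acid synthesis had their highest medians at different stages. Psat1 encodes the second enzyme of serine synthesis from glucose. Its median was 8.27 TPM at 18 h, 198 TPM at 28 h, 944 to 1048 TPM in 4-cell embryos, 1222 TPM in 8-cell embryos, 805 to 809 TPM in morulae and 129 to 251 TPM in blastocysts. Asns had a median of 0 TPM at 28 h, 7.41 to 10.4 TPM in 4-cell embryos, 42.7 to 78.6 TPM in morulae and 62.8 to 152 TPM in blastocysts.

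**Figure D1:**
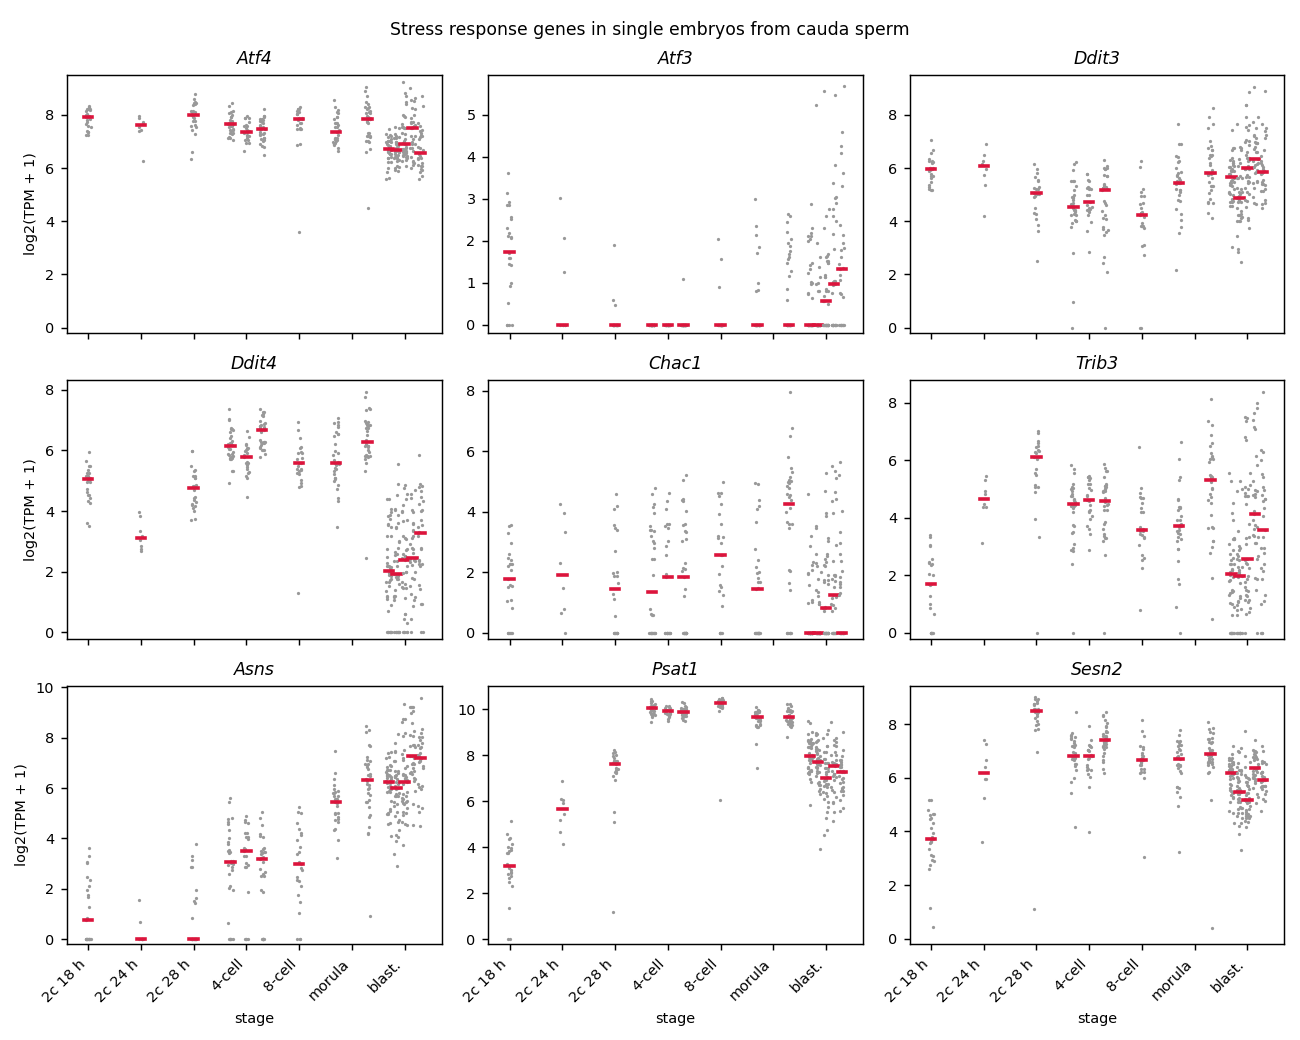
Level of each of the 9 genes, as log2(TPM + 1) on the y axis, in single embryos of cauda sperm by stage on the x axis; grey points are embryos and red bars are cohort medians (n = 8 to 42 embryos a cohort). Sesn2, Trib3 and Psat1 climb between 18 and 28 h, Psat1 and Ddit4 lie lower in the blastocyst cohorts than in the morula cohorts, and Asns lies highest in morulae and blastocysts.

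The 2-cell embryos of 18 and 28 h shared 3 label codes, a number inside each library name whose meaning the labels do not give, so the times could be compared within codes. Of the 9 genes, 3 rose and 4 fell between these times, on a background of 79.7% of 13343 tested genes called at an adjusted p under 0.05 (limma on log2(TPM + 1), Benjamini-Hochberg over all tested genes, as for every adjusted p below). Over 25 cauda embryos at 18 h, Sesn2 had a lowest value of 0.360, a median of 12.1 and a highest of 35.0 TPM. Over 24 cauda embryos at 28 h it had 1.13, 358 and 515 TPM, and over 25 caput embryos 107, 425 and 669 TPM. The groups overlapped only in the cauda embryo whose profile resembled 18 h. Sesn2 rose by 5.02 ± 0.23 on the log2 scale (± SE, a fold of 32.4, adjusted p = 2.86e-37). Trib3 rose by 4.33 ± 0.23 (adjusted p = 6.78e-33) and Psat1 by 4.08 ± 0.24 (adjusted p = 5.8e-30). Without the embryo that stood apart, these rises were 5.17, 4.44 and 4.21, and the same number of the 9 genes was called.

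Ddit3 was lower at 28 h (log2 change -1.15 ± 0.16, adjusted p = 3.44e-10). Atf3 also had a lower level (-1.67 ± 0.18, adjusted p = 1.21e-14), but it reached 1 TPM in 19 of 25 cauda and 16 of 19 caput embryos at 18 h and in 1 of 24 and 4 of 25 at 28 h. It thus entered the test through the 18 h embryos alone, and its call is a description. Ddit3 in cauda embryos went from 35.0, 62.3 and 133 TPM (lowest, median and highest) to 4.75, 32.4 and 70.6 TPM, with overlap. Ddit4 and Asns were called with smaller changes of -0.36 ± 0.13 and -0.50 ± 0.23 (adjusted p = 0.0118 and 0.0422 in limma). Leaving out 1 label code ended the call of Ddit4 in 1 of 3 cases (adjusted p = 0.201) and that of Asns in 2 of 3 (up to 0.534). Atf4 itself had a change of 0.13 ± 0.10 and Chac1 one of -0.17 ± 0.28, and neither passed the test (adjusted p = 0.229 and 0.58). A test of whether caput and cauda embryos changed differently between the times called 0 of the 9 genes and 0% of 14969 genes, with 1 of the 9 genes and 1313 of all at an unadjusted p under 0.05. That 1 was Sesn2, with a difference of 1.04 ± 0.46 (limma, adjusted p = 0.513), which was 0.77 ± 0.35 without the embryo that stood apart (0.469).

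Later stages were compared over cauda cohorts, with 1 mean per cohort, so the number of points is the number of cohorts (3 at the 4-cell stage, 2 of morulae, 5 of blastocysts) and cohort and stage cannot be told apart. From the 4-cell stage to the morula, 2 of 9 genes rose, against 45.9% of 12144 genes called in either direction. Asns rose by 2.93 ± 0.42 (a fold of 7.63, adjusted p = 0.000115) and Ddit3 by 1.06 ± 0.37 (limma, adjusted p = 0.0332). The call of Ddit3 was lost in 4 of 5 fits that left out a cohort (adjusted p up to 0.244) and that of Asns in none. From the morula to the blastocyst, 5 of 9 fell, on a background of 38% called. Ddit4 fell by 3.61 ± 0.32 (a fold of 12.2, adjusted p = 6.6e-06) and Psat1 by 2.18 ± 0.22 (adjusted p = 1.51e-05), each in all 7 fits that left out a cohort. Chac1, Sesn2 and Atf4 changed by -1.37 ± 0.45, -0.81 ± 0.28 and -0.65 ± 0.20 (limma, adjusted p = 0.0307, 0.0388 and 0.025), and these calls held in 5, 2 and 4 of the 7. Leaving out the second morula cohort took Chac1 to -0.34 and Trib3 from -1.33 to -0.67.

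Caput and cauda sperm were compared to ask whether the place along the epididymis from which sperm are taken alters expression in the embryo. At the 2-cell stage 0 of the 9 genes passed the test at any time. At 18 h all 9 were tested, against a background of 0.00775% of 12899 genes called (1 gene). At 24 h and at 28 h, 8 were tested, and 0% of 13400 and 0% of 13179 genes were called. At an unadjusted p under 0.05 there were 1, 1 and 0 of the 9, and 724, 554 and 1031 of all genes. The largest difference was in Trib3 at 24 h, a time with a single label code. Cauda embryos had a lowest value of 7.64, a median of 24.2 and a highest of 42.3 TPM, and caput embryos 0, 8.49 and 23.8 TPM. The groups overlapped, but 0 of 11 caput embryos exceeded the cauda median. The difference of -1.87 ± 0.53 did not pass after adjustment over all genes (limma, adjusted p = 1). At 18 h and 28 h that of Trib3 was -0.26 ± 0.34 and 0.23 ± 0.30, the latter 0.01 ± 0.22 without the embryo that stood apart. Sesn2 differed by -0.68 ± 0.32 at 18 h and by 0.47 ± 0.31 at 28 h (limma, adjusted p = 0.835 and 0.75), and the 28 h value was 0.19 ± 0.15 without the embryo that stood apart.

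At the 4-cell stage, Sesn2 was higher in embryos of caput sperm over the mean of both cohorts. In the first cohort it had a lowest value of 17.0, a median of 113 and a highest of 347 TPM in 32 cauda embryos, and 38.3, 141 and 426 TPM in 32 caput embryos. In the second it had 14.9, 113 and 246 TPM in 23 cauda embryos and 63.5, 132 and 690 TPM in 23 caput embryos. The groups overlapped widely, with 21 of 32 and 17 of 23 caput embryos over the median of cauda embryos and caput higher in 4 of 4 and 3 of 4 label codes. Taken alone, the cohorts called 0 of 8 tested genes each, on backgrounds of 1.12% of 11597 and 0.573% of 11511 genes. At an unadjusted p under 0.05 the counts were 0 and 3 of the 8, and 1214 and 1078 of all. Sesn2 differed by 0.25 ± 0.17 in the first (limma, adjusted p = 0.673) and by 0.69 ± 0.22 in the second (0.179). The mean of both was 0.48 ± 0.13 (a fold of 1.39, adjusted p = 0.0150), the single call among 8 tested, with 5.33% of 11535 genes called. It was lost without 1 of the 8 label codes (adjusted p = 0.116) and when each label code and group gave a single mean (0.189). The number of genes at 1 TPM, with which Sesn2 varied (r = 0.210 over 219 4-cell embryos, a description), had group medians of 10264 in caput and 10244 in cauda embryos of the first cohort and of 10235 and 10192 in the second. Its part in the result was not tested. Ddit4 differed by 0.10 ± 0.12 and 0.33 ± 0.14 in these cohorts, and Psat1, at medians of 863 to 1048 TPM, by -0.10 ± 0.05 and -0.11 ± 0.06, none of them called.

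In 8-cell embryos 0 of 8 tested genes passed, with 0% of 11774 genes called and 1 of the 8 and 541 of all at an unadjusted p under 0.05. Asns had medians of 6.86 TPM in cauda and 5.80 TPM in caput embryos, each with a lowest value of 0, and highest values of 37.4 and 32.2 TPM. Its difference of -1.29 ± 0.51 did not pass the test (limma, adjusted p = 0.973), and was -1.35 ± 0.50 without the 3 libraries that stood apart (0.643). Only 3 of 6 label codes held both groups. Caput embryos of the other codes count in the medians but do not inform the difference, which was taken within codes. Without those libraries, Psat1, the most abundant of the 9, ranged from 967 to 1450 TPM in cauda embryos and from 484 to 1587 TPM in caput embryos. Its difference was 0.00 ± 0.10 without them and 0.11 ± 0.24 with them. Sesn2 differed by -0.41 ± 0.26 with them and by -0.51 ± 0.18 without them, and neither passed (limma, adjusted p = 0.619 without them). In morulae of the first cohort, 0 of 8 tested genes were called, on a background of 0.859% of 11519 genes, and 0 of 8 had an unadjusted p under 0.05, against 864 of all genes. Trib3 differed by 0.41 ± 0.30 there and Atf4 by 0.07 ± 0.14.

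In blastocysts, Ddit4 and Atf4 were higher in embryos of caput sperm over the mean of the 3 cohorts that hold caput embryos without injected RNA. Ddit4 had a median of 3.03 TPM in 42 cauda embryos and 5.50 TPM in 35 caput embryos of the first cohort. In the second the medians were 2.79 and 4.63 TPM, and in the fourth 4.47 and 6.00 TPM. Lowest values were 0 in all 6 groups and the highest ranged from 19.9 to 71.6 TPM, so the groups overlapped over most of their range, with 28 of 35, 22 of 34 and 20 of 32 caput embryos over the median of cauda embryos. Caput was the higher group in 5 of 6, 5 of 6 and 4 of 6 label codes. The mean difference was 0.58 ± 0.16 (a fold of 1.49, adjusted p = 0.00873). Atf4 had medians of 103 and 128 TPM in cauda and caput embryos of the first cohort, 101 and 109 TPM in the second and 181 and 202 TPM in the fourth. Its mean difference was 0.24 ± 0.07 (a fold of 1.18, limma, adjusted p = 0.0185). It was lost when the values were rescaled by median ratios between libraries (0.16, adjusted p = 0.177), and both calls were lost with a single mean per label code and group (adjusted p = 0.252 for Ddit4 and 0.58 for Atf4).

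Those 2 of 9 stood on a background of 6.22% of 12180 genes called, of which 734 were higher and 23 lower in caput embryos, and the median change of all genes was 0.07. Of the other members, Trib3 differed by 0.54 ± 0.20, Psat1 by 0.29 ± 0.10 and Sesn2 by 0.28 ± 0.10, and none passed (limma, adjusted p = 0.0903, 0.0559 and 0.077). Asns differed by -0.01 ± 0.19, being -0.49 ± 0.19 in the first cohort and 0.44 ± 0.25 in the fourth. The cohorts taken alone called 0 of 9, 0 of 8 and 0 of 9 tested genes, with backgrounds of 2.12% of 12200, 0.28% of 12154 and 1.84% of 12098 genes. At an unadjusted p under 0.05 the counts were 4, 1 and 1 of these genes, and 2366, 1819 and 1409 of all. Number of genes at 1 TPM was close between the groups, with medians of 11087 in caput and 11046 in cauda embryos of the first cohort, 10955 and 10793 in the second and 11051 and 11040 in the fourth. Of 4 trophectoderm and 3 inner cell mass markers 0 were called, while of 3 primitive endoderm markers 2 were called, Gata6 at 0.43 and Sox17 at -0.77, and Pdgfra at -0.13 was not. The part of these markers in the result was not tested. The difference between the caput effects at the 4-cell and blastocyst stages was tested as such. It called 0 of 9 genes and 0.904% of 14273, with 2 of the 9 (Atf4 and Psat1) and 2099 of all at an unadjusted p under 0.05.

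**Figure D2:**
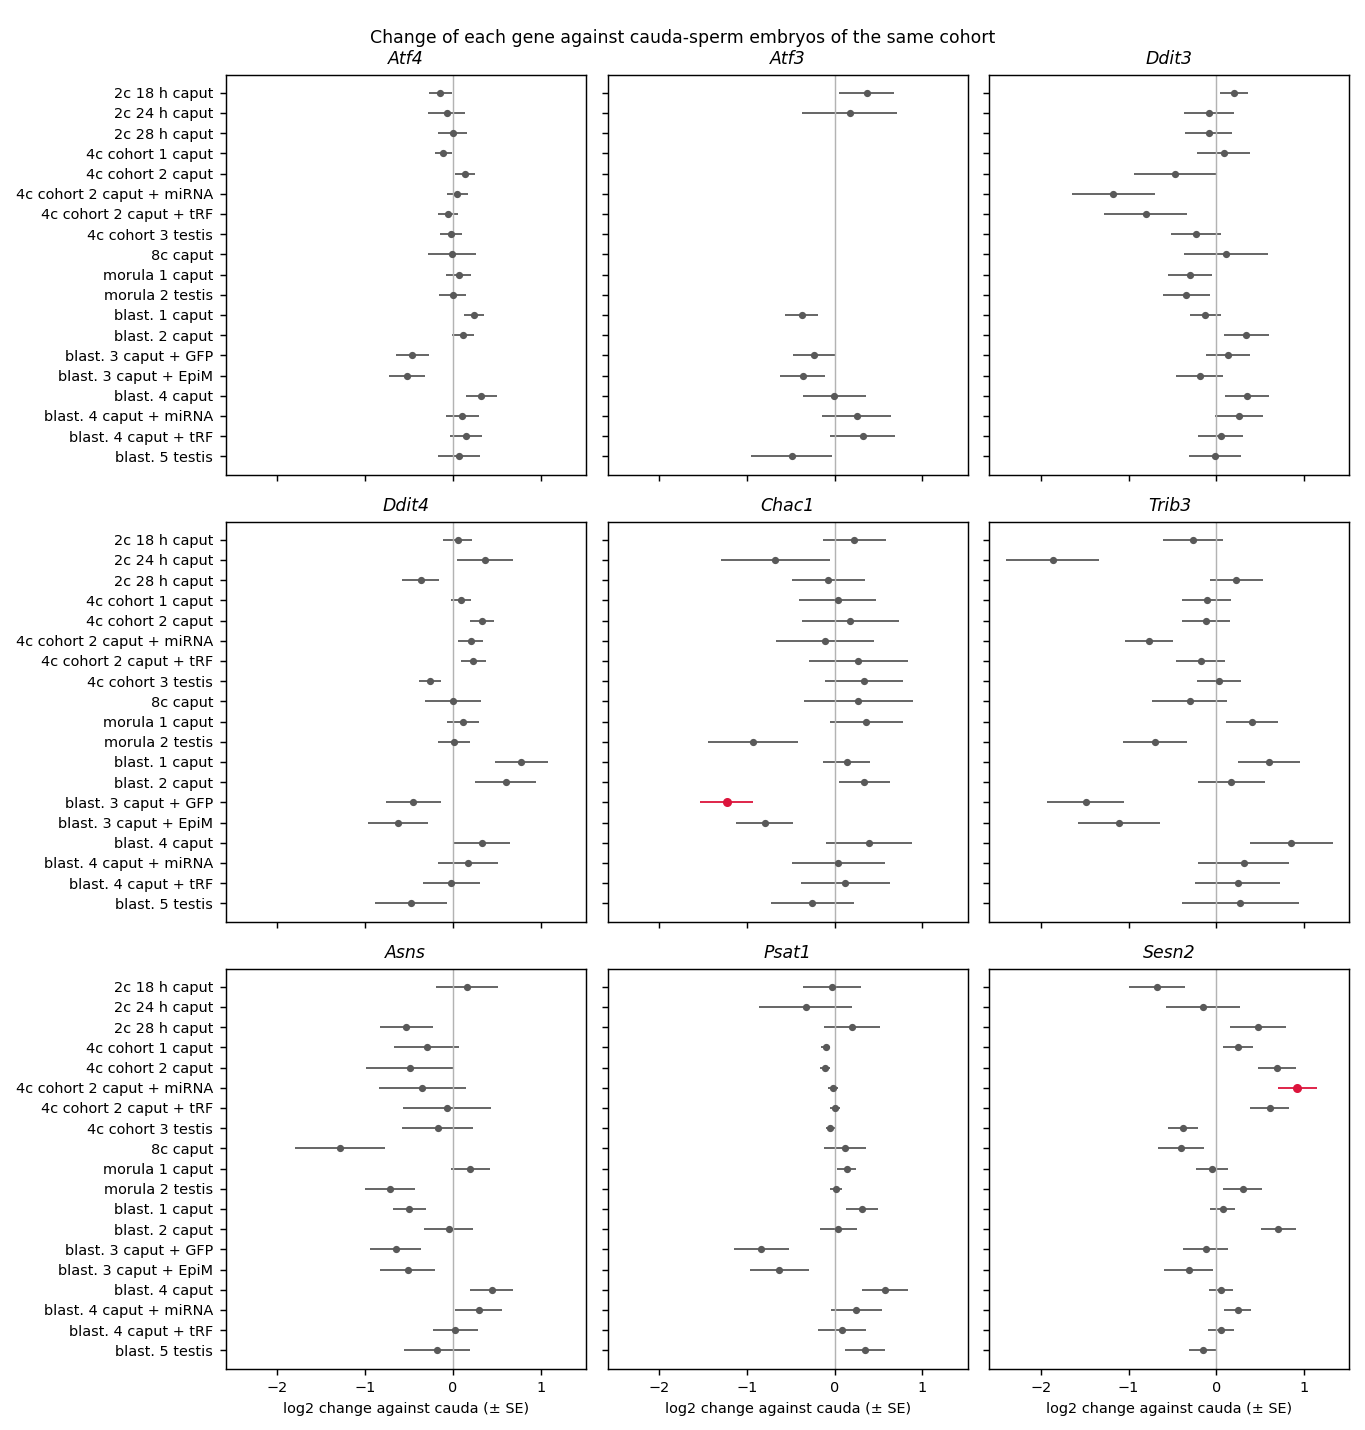
Log2 difference (x axis, ± SE) of each gene between each other group and the cauda embryos of the same cohort (y axis, caput, testis or caput with the named RNA); red points passed an adjusted p under 0.05 and missing points were not tested for low values. The 2 red points are Sesn2 in 4-cell embryos of cohort 2 with miRNA and Chac1 in blastocysts of cohort 3 with GFP RNA, which entered its test through the cauda embryos alone, and several comparisons share their cauda embryos.

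RNA was injected into caput zygotes to ask whether small RNA of the kind sperm gain in the epididymis changes the embryo's expression. In the third blastocyst cohort, caput embryos received GFP or EpiM small RNA and were set against cauda embryos that received none, with no uninjected caput embryos in the cohort, so sperm source and injection cannot be told apart. Chac1 reached 1 TPM in 17 of 39 cauda embryos, in 1 of 26 embryos with GFP RNA and in 4 of 25 with EpiM RNA. Its lowest value, median and highest value were 0, 0.750 and 38.1 TPM in cauda embryos, 0, 0 and 3.71 TPM with GFP and 0, 0 and 17.6 TPM with EpiM. Chac1 was lower with GFP than in cauda embryos in 5 of 5 label codes (log2 change -1.23 ± 0.30, limma, adjusted p = 0.0334), the only 1 of 9 genes called, on a background of 0.455% of 11648. Since Chac1 passed the filter on low values through the cauda embryos alone, where it is high, the filter favours this call, which is given as a description and supports nothing further. Leaving out a label code ended the call in 3 of 5 cases (adjusted p up to 0.429), as did dropping that filter (0.061).

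In the same comparison Trib3 had a lowest value of 0, a median of 4.90 and a highest of 180 TPM in cauda embryos and 0, 2.5 and 22.0 TPM with GFP. It was lower in 5 of 5 label codes but did not pass (-1.49 ± 0.44, limma, adjusted p = 0.0915). Psat1 differed by -0.83 ± 0.31, Asns by -0.65 ± 0.29 and Atf4 by -0.46 ± 0.19, and 5 of the 9 had an unadjusted p under 0.05. With EpiM RNA the differences from the same cauda embryos were -1.11 ± 0.47 for Trib3, -0.80 ± 0.32 for Chac1 and -0.52 ± 0.20 for Atf4. There 0 of 9 genes and 0% of 11608 were called, and 3 of the 9 and 1163 of all had an unadjusted p under 0.05. Embryos with EpiM and with GFP RNA, which both passed through injection, were compared directly. Of 7 genes tested 0 were called, against 0.466% of 11384, and 0 of 7 and 542 of all had an unadjusted p under 0.05. Trib3 differed by 0.38 ± 0.50 in that comparison and Atf4 by -0.06 ± 0.22.

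**Figure D3:**
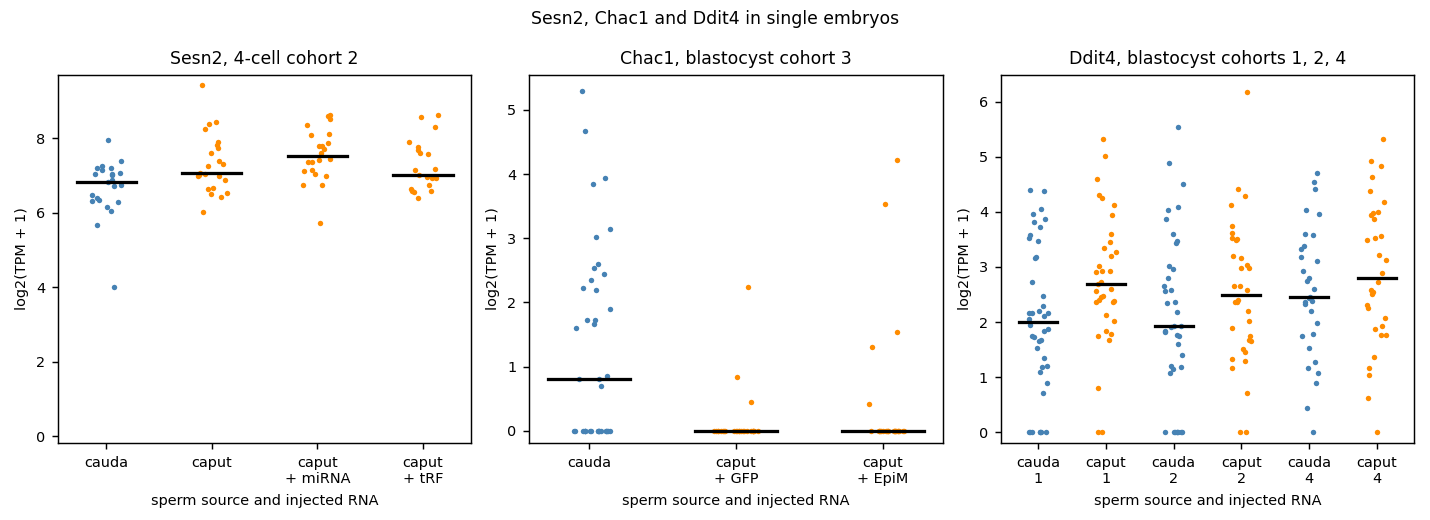
Level of Sesn2 in 4-cell embryos of cohort 2, of Chac1 in blastocysts of cohort 3 and of Ddit4 in blastocysts of cohorts 1, 2 and 4, as log2(TPM + 1) on the y axis, by sperm source and injected RNA on the x axis; blue points are cauda and orange points caput embryos, and black bars are medians. For Chac1, 23 of 26 GFP embryos, 20 of 25 EpiM embryos and 18 of 39 cauda embryos lie at 0. The groups shown for Sesn2 and for Ddit4 overlap over most of their range.

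In the second 4-cell cohort, where uninjected caput embryos were present, embryos with EpiM miRNA or tRF had no called difference from them in the 8 genes tested. The backgrounds were 1.26% of 11673 genes for miRNA and 0.00861% of 11608 for tRF, and 0.822% of 11436 for miRNA against tRF. Of 8 tested genes, 1, 1 and 1 had an unadjusted p under 0.05, and of all genes 1491, 1014 and 880. The gene for miRNA was Trib3, with a lowest value of 5.98, a median of 19.9 and a highest of 71.8 TPM in caput embryos and 1.92, 13.9 and 69.8 TPM with miRNA (-0.65 ± 0.28, limma, adjusted p = 0.288). Against cauda embryos, Sesn2 was higher with miRNA. Its lowest value, median and highest value were 51.8, 183 and 390 TPM with miRNA, beside the cauda values of 14.9, 113 and 246 TPM given above, and 19 of 22 embryos lay above the cauda median. The difference of 0.92 ± 0.22 (a fold of 1.89, limma, adjusted p = 0.0308) was the only call among 8 genes, with 0.96% of 11566 called. It held in 4 of 4 label codes by direction, at 0.62, 0.34, 1.83 and 0.23. Without the code of the largest value it was 0.47 (adjusted p = 0.625), and without the filter on low values the adjusted p was 0.0536.

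With tRF, Sesn2 had 83.6, 129 and 393 TPM and differed from cauda by 0.60 ± 0.22 (limma, adjusted p = 0.172), and 0 of 8 genes were called on a background of 1.27% of 11489, with 1 of the 8 and 1620 of all at an unadjusted p under 0.05. The comparisons of caput, miRNA and tRF embryos with cauda embryos share those cauda embryos, and Sesn2 differed between miRNA and uninjected caput embryos by 0.23 ± 0.22 (adjusted p = 0.7). Ddit3 had medians of 25.6 TPM in cauda, 31.6 TPM in caput, 13.1 TPM with miRNA and 18.1 TPM with tRF embryos, and its difference of -1.17 ± 0.47 between miRNA and cauda did not pass (limma, adjusted p = 0.177).

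In the fourth blastocyst cohort, the same kinds of RNA gave 0 calls among 9 tested genes in each of 5 comparisons. The backgrounds were 3.05% of 12113 genes for miRNA against uninjected caput, 0% of 12106 for tRF against uninjected caput, 1.48% of 11968 for miRNA against tRF, 0% of 12075 for miRNA against cauda and 0.662% of 12084 for tRF against cauda. In all 5, 0 of the 9 had an unadjusted p under 0.05, beside 605 to 1536 of all genes. Trib3 is given in full. It ran from 1.28 to 378 TPM with a median of 41.1 in uninjected caput embryos, from 0 to 251 TPM with a median of 16.4 in cauda embryos, from 0 to 477 TPM with a median of 17.5 with miRNA and from 0.830 to 309 TPM with a median of 16.9 with tRF. All 4 groups overlapped. Uninjected caput embryos differed from cauda embryos by 0.85 ± 0.47, and embryos with miRNA and tRF differed from uninjected caput embryos by -0.54 ± 0.48 and -0.61 ± 0.47. None passed (limma, adjusted p = 0.501, 0.715 and 0.889).

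Embryos of testis sperm, which have not entered the epididymis, were compared with cauda embryos in 3 cohorts, and 0 of the tested genes were called in any. The counts were 0 of 8 in 4-cell embryos (background 0.0174% of 11471), 0 of 8 in morulae (1.58% of 11790) and 0 of 9 in blastocysts (0% of 12062). At an unadjusted p under 0.05 there were 2, 1 and 0 of these genes and 861, 2009 and 568 of all. In 4-cell embryos Sesn2 had a lowest value of 71.9, a median of 169 and a highest of 353 TPM in cauda and 34.0, 143 and 661 TPM in testis embryos, with a difference of -0.38 ± 0.17 (limma, adjusted p = 0.622). In morulae Asns had 0.870, 78.6 and 352 TPM in cauda and 9.82, 40.1 and 261 TPM in testis embryos, a difference of -0.71 ± 0.28 (adjusted p = 0.171). It passed when the library of few genes, a cauda morula, was left out (-0.86, adjusted p = 0.0316). In blastocysts Atf4 had a mean of 198 ± 137 TPM in 28 testis embryos and 124 ± 82.7 TPM in 29 cauda embryos (SD). Within label codes the difference was 0.07 ± 0.24 (limma, adjusted p = 0.995), and among codes of at least 5 embryos the one of highest Atf4 median held 8 testis and 2 cauda embryos.

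Other genes of the pathway are read against the share of all genes called. Between 18 and 28 h, when that share was 79.7%, of 6 genes for eIF2 kinases and phosphatase subunits 3 rose and 2 fell, with a median change of 1.16 against -0.06 over all genes. Ppp1r15b, a subunit that directs phosphatase to eIF2, rose by 3.82, from a mean of 2.60 to 50.8 TPM. Of 8 genes for eIF2 and its exchange factor eIF2B, 6 rose and 1 fell. Of 11 genes for aminoacyl-tRNA synthetases, which charge tRNAs and are known ATF4 targets in part, 4 rose and 7 fell, with a median of -1.05. Yars, the tyrosine enzyme, rose by 3.77, from a mean of 0.298 to 19.2 TPM. Slc1a5, a glutamine transporter, rose by 4.19, from 0.968 to 38.6 TPM, while of 6 transporter genes 3 rose and 3 fell. With means under 1 TPM at 18 h, Yars and Slc1a5 may have entered the test through the 28 h embryos alone, so their rises are descriptions. Of 9 genes for chaperones and the unfolded protein response 6 rose and 2 fell, and Dnajb9, an endoplasmic reticulum cochaperone, had a mean of 48.8 TPM at 18 h and 918 TPM at 28 h. From the 4-cell stage to the morula 4 of 11 synthetase genes rose and 0 fell, and from the morula to the blastocyst 0 rose and 1 fell, both under the 45.9% and 38% of all genes called. Cth, an enzyme of cysteine synthesis, had a mean of 137 TPM in morulae and 29.3 TPM in blastocysts.

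By sperm source few genes of these lists were called. Over both 4-cell cohorts, with 5.33% of all genes called, 0 of 11 synthetase genes and 0 of 7 genes of serine, one-carbon and proline synthesis passed, and of 5 transporter genes 1 did (Slc1a5, higher in caput by 0.64). Over the 3 blastocyst cohorts, with 6.22% of all genes called and 734 of those 757 higher in caput embryos, 2 of 6 kinase and phosphatase genes were higher in caput embryos, among them Eif2ak3, which encodes the kinase PERK of the endoplasmic reticulum (0.43). Of 8 genes of serine, one-carbon and proline synthesis 1 was higher, Mthfd2, a mitochondrial folate enzyme (0.44), and of 11 synthetase genes 1, with a median of 0.15 against 0.07 over all genes. Of 10 chaperone genes 0 were called. Cebpb, a bZIP factor that can pair with ATF4, was higher in caput embryos of the first 4-cell cohort (7.78 against 0.556 TPM, log2 change 1.86 ± 0.28). It was also higher in the first morula cohort (5.90 against 0.386 TPM, 2.01 ± 0.27) and in the second blastocyst cohort (5.40 against 1.73 TPM, 1.48 ± 0.31). Cohorts in which it did not meet the naming rule given below are not listed. Cebpb was also higher with GFP RNA than in cauda blastocysts (6.02 against 1.58 TPM, 1.40 ± 0.30) and lower with EpiM than with GFP RNA (0.673 against 6.02 TPM, -2.12 ± 0.34). These comparisons share the GFP embryos. Where its lower group averaged under 1 TPM, Cebpb may have passed the filter on low values through the higher group alone, so its differences are descriptions. Eif2b5, a subunit of eIF2B, was higher in caput than in cauda blastocysts of the fourth cohort (0.66 ± 0.13) and lower with miRNA than in uninjected caput embryos (-0.82 ± 0.14). Both comparisons share the uninjected caput embryos and are not independent. With tRF it was higher than in cauda embryos (0.59 ± 0.14), and with miRNA it was lower than with tRF (-0.75 ± 0.14). In 4-cell embryos of the second cohort it was lower with miRNA than in cauda embryos (-0.45 ± 0.12). With GFP RNA against cauda, the 11 synthetase genes had a median of -0.55 and the 8 genes of serine, one-carbon and proline synthesis a median of -0.49, against -0.02 over all genes, and 0 of either passed. The p53 targets Cdkn1a and Btg2 were higher there by 1.04 ± 0.25 and 1.02 ± 0.24. Another p53 target, Bbc3, was higher in caput than in cauda embryos over both 4-cell cohorts (0.91 ± 0.23) and over the 3 blastocyst cohorts (0.68 ± 0.18). Trp53inp1 was also higher over the 3 blastocyst cohorts (0.38 ± 0.12). These p53 targets are named because they were called, where 0.455% (GFP), 5.33% (4-cell) and 6.22% (blastocyst) of all genes were. They do not describe the list of p53 targets as a whole.

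Single embryos of 1 group also differed from each other, and in blastocysts the 9 genes were positively correlated over all embryos. Each value was taken as a deviation from the mean of its group and label code, so that group and code play no part, and the correlations are descriptions across embryos. Over 409 blastocysts all 36 pairs of the 9 genes had a positive r, from 0.155 to 0.725 with a median of 0.396. Over 128 morulae 33 of 36 were positive, with a median of 0.394. In earlier embryos the median was 0.0190 over 112 2-cell embryos and -0.00160 over 219 4-cell embryos, where 22 and 18 of 36 pairs were positive. At the 8-cell stage it was 0.106 over 51 embryos and -0.00125 over 50 without the cauda embryo that stood apart. That embryo still counted in the mean from which deviations were taken. The caput embryos that stood apart were each alone in their label code and were in neither set. Atf3 reached 1 TPM in 1 of 88 cauda 4-cell embryos, so its pairs carry little there.

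The pair of highest r in blastocysts was Atf4 with Trib3, at 0.725 (Spearman's rho 0.690, and r 0.728 without the 2 embryos farthest from the median of Atf4). Within the 13 groups of blastocysts it ran from 0.344 to 0.886. Atf4 had an r of 0.582 with Psat1, 0.573 with Ddit4, 0.556 with Asns, 0.5 with Ddit3, 0.465 with Chac1, 0.439 with Sesn2 and 0.306 with Atf3. Within the 13 groups the r of Atf4 was above 0 in all 13 for Trib3, Psat1, Ddit4, Chac1 and Sesn2, in 12 for Asns (lowest -0.277) and in 11 each for Ddit3 (lowest -0.153) and Atf3 (lowest -0.101). In morulae the r of Atf4 with Trib3 was 0.615, in 4-cell embryos 0.0363 and in 2-cell embryos 0.116. In 4-cell embryos Atf4 went highest with Ddit4, at 0.319. The number of genes at 1 TPM had an r of 0.231 with Atf4 and of 0.598 with Sesn2 in blastocysts, and its part in the correlations was not tested.

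**Figure D4:**
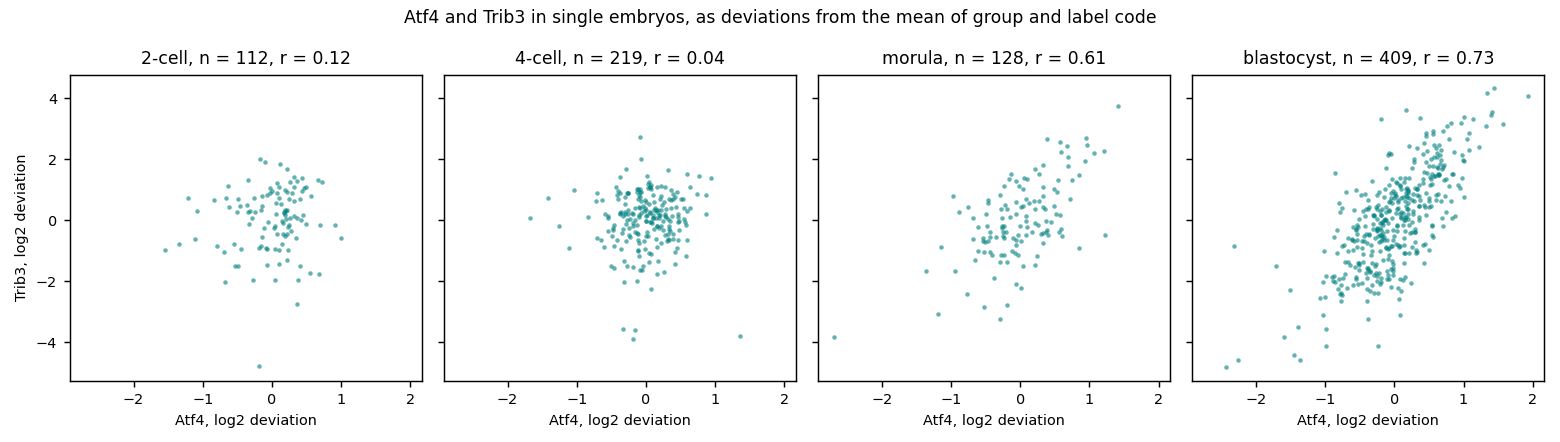
Deviation of Atf4 (x axis) and Trib3 (y axis) from the mean of group and label code, in log2(TPM + 1), for single embryos at 4 stages; each point is an embryo. The r is 0.116 in 2-cell embryos, 0.0363 in 4-cell embryos, 0.615 in morulae and 0.725 in blastocysts.

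Of 10611 genes measured in blastocysts, those of highest r with Atf4 included many of the lists used here, a pattern seen after the values. Nars, Cars and Sars, which charge tRNA with asparagine, cysteine and serine, had an r of 0.730, 0.728 and 0.709, and Mthfd2 had 0.702. The tyrosine and threonine enzymes Yars and Tars had 0.660 and 0.606, Herpud1, which serves degradation of endoplasmic reticulum proteins, 0.655 and Ppp1r15b 0.605. The median r with Atf4 was 0.587 over 11 synthetase genes, 0.506 over 8 genes of serine, one-carbon and proline synthesis and 0.465 over 6 transporter genes, beside 0.102 over all genes. Of the list of ATF4 partners and related factors 2 genes were measured, Cebpg (0.318) and Nupr1 (0.557). Other lists lay nearer to the median of all genes, with 0.192 over 6 kinase and phosphatase genes, 0.139 over 8 eIF2 and eIF2B genes, 0.0518 over 10 chaperone genes, 0.0724 over 6 p53 targets and 0.0525 over 4 trophectoderm markers, while 3 inner cell mass markers had -0.254. In morulae the 11 synthetase genes had a median of 0.558 beside 0.0891 over all genes. In 4-cell embryos it was 0.0453 beside 0.0482, and in 2-cell embryos 0.0674 beside 0.0443.

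**Figure D5:**
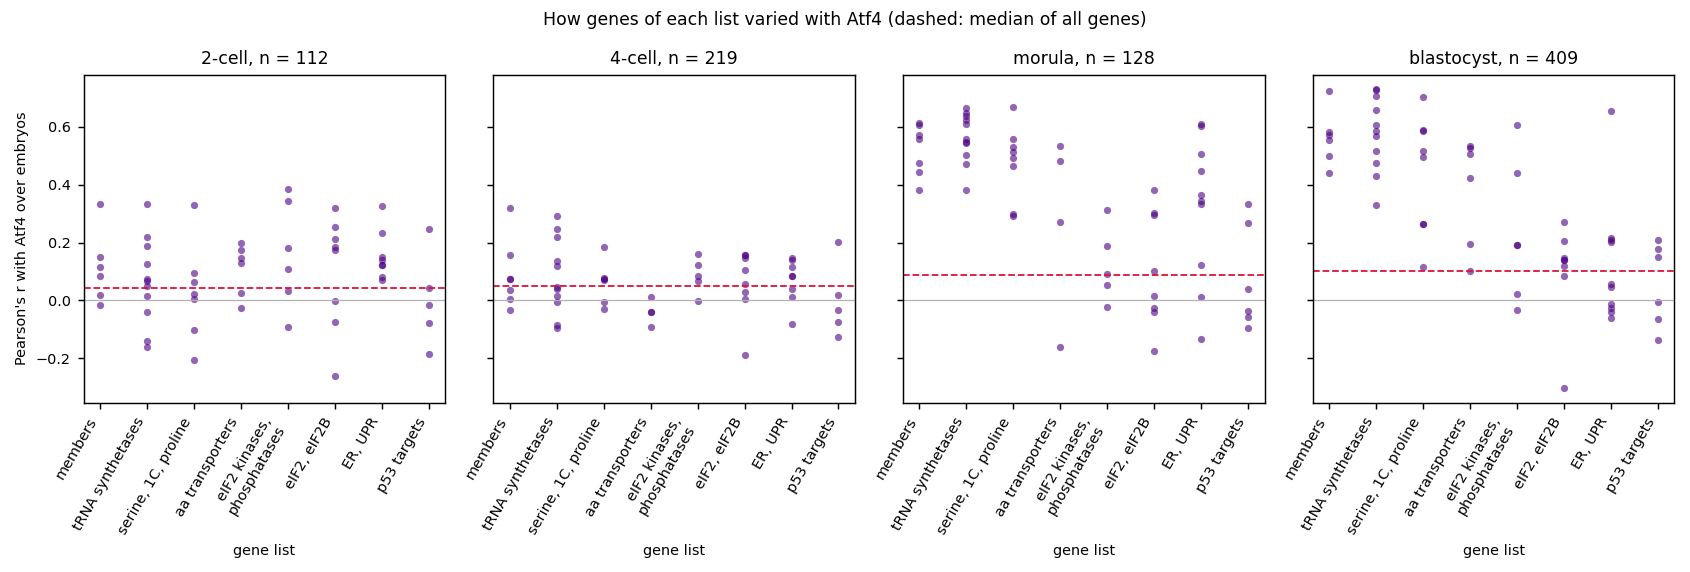
Pearson's r of each gene with Atf4 over single embryos (y axis, deviations from the mean of group and label code) by gene list (x axis) at 4 stages; each point is a gene and the dashed line is the median of all genes. In morulae and blastocysts the synthetase genes lie well above the dashed line (medians 0.558 and 0.587), and in 2-cell and 4-cell embryos they scatter around it.

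High levels were held by a minority of blastocysts in some cohorts. Trib3 reached 100 TPM, a level chosen after the values were seen, in 40 of 420 blastocysts, 9 of 128 morulae, 6 of 112 2-cell embryos, 0 of 220 4-cell embryos and 0 of 53 8-cell embryos. In the fourth cohort this held for 10 of 32 uninjected caput embryos, 4 of 30 with miRNA, 7 of 30 with tRF and 6 of 31 cauda embryos. In the fifth it held for 7 of 28 testis and 1 of 29 cauda embryos, in the third for 5 of 39 cauda embryos and for none of 26 with GFP or 25 with EpiM RNA, and in the first and second for none. These counts were not taken within label codes. Among fifth-cohort codes of at least 5 embryos, Trib3 medians ran from 10.7 to 70.6 TPM. The highest was in the code that also had the highest Atf4 median, which held mostly testis embryos, so the 2 groups are not compared by these counts.

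Atf4 also differed between label codes. Of the spread of Atf4 over 420 blastocysts, 28.5% lay between label codes of the same cohort, 11.4% between groups within a code and 49.4% within group and code. The median gene had 11.8% between label codes, and 97.6% of 10621 genes had a lower share than Atf4. For Psat1 the share between codes was 21.3%, for Asns 18.2% and for Trib3 15.7%. In the fourth cohort the medians of the codes ran from 97.2 to 308 TPM for Atf4, from 5.84 to 83.0 TPM for Trib3 and from 99.4 to 326 TPM for Asns. In the fifth they ran from 81.0 to 305 TPM for Atf4. What differs between label codes is not given in the labels. All comparisons of groups within a cohort were made within label codes.

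The gene whose mean level over the 33 groups was most like that of each member, among 12704 genes that reach a mean of 5 TPM in a group, was named as a description. For Asns it was Dusp3 (r = 0.986), for Psat1 Aacs (0.978), for Sesn2 Mta2 (0.968), for Ddit4 Fbxl20 (0.963), for Ddit3 D10Jhu81e (0.918) and for Atf3 Pja1 (0.888). For Trib3 it was Mafk (0.838), for Atf4 Cnnm2 (0.806) and for Chac1 Ctdp1 (0.753), with Atf4 second for Chac1 (0.740). These r values rest mostly on differences between stages, which the groups of a stage share.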

How the data were processed

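The deposited tables give TPM per gene and embryo, as the authors made them. The submitters' processing notes name Bowtie and mm10, with no version given in the sources used here. Libraries were prepared by Smart-seq2, per the labels' protocols, and the labels' notes give a harvest at 28 h for all samples although the stages differ. Each library's TPM summed to between 999998.77 and 1000000.98, no whole reads can be recovered from it, and depth is unknown, so no counting interval is given.

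Values were tested as log2(TPM + 1) with limma 3.58.1 in R 4.3.3 (moderated with trend and robust options, a mean per group and a term for the label code). Genes entered a test when the number of embryos at 1 TPM or more was 50% or more of the size of the smaller group. Stages were compared over cauda cohorts, with 1 mean per cohort and genes of a mean log2 of at least 1 in 2 cohorts. P-values were adjusted by the Benjamini-Hochberg method over all tested genes, with a threshold of 0.05. A fold change on this scale understates the change of low genes. The procedure was tested on simulated data in which embryos varied independently around the mean of their label code. Group differences did not vary between codes there, so the simulation does not cover such variation. Figures and correlations used Python 3.11.15 with numpy 2.4.6 and pandas 2.3.3. Symbols were matched as listed, and promoters and positions come from RefSeq (GRCm38.p6, the build that mm10 names).

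The members, the lists of other genes and the tests were chosen with earlier results of these data known. Members were tested wherever they passed the filter, but in many comparisons only some are given by value, often those of larger difference. Other list genes were named from those that met a rule: called, averaging 5 TPM or more in whichever group was higher, and up to 4 per comparison by size. Not all genes that met the rule are named, among them Xbp1 and Ccng1 between the 4-cell stage and the morula. Genes named for their correlation with Atf4 and the primitive endoderm markers fall outside it and were chosen after their values were seen. Alternatives were a pseudocount of 0.1, no filter, no label code term, a replicate block, a single mean per code and group, median-ratio scaling, a median per cohort, and leaving out libraries of few genes or 1 label code or cohort. Leaving out libraries apart from their stage was chosen after seeing the data. A library was called apart if its r with the mean of another stage was higher than with its own by over 0.1, or its r with its own was under 0.15.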

Additional observations from a re-analysis of the deposited data

Results flagged for a closer look

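In the 8 cauda 2-cell embryos harvested at 24 h, the highest embryo lay far from the others for 2 of the 9 genes. For Atf3 it had 7.08 TPM and the next embryo 3.17 TPM. For Asns the highest had 1.94 TPM and the next 0.590 TPM. Both genes are near 0 at this time. Of 18 sets of values examined in this way 2 stood out. The rule gives about 1 in 20 by chance only for normally distributed values. Atf3 was 0 in 5 and Asns in 6 of these 8 embryos, so that rate does not apply to them.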

How the results depend on the processing

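Counts below are of the 9 genes called, and small changes of a larger count are not listed. Over all comparisons, 6 gene calls were lost without the filter on low values, 3 without the label code term and 6 with a single mean per code and group. With a median per cohort, 1 was lost and 1 gained. A pseudocount of 0.1 left all 33 counts as they were, and leaving out the libraries apart from their stage, chosen after seeing the data, left all 4. Without the filter on low values, GFP against cauda went from 1 to 0, miRNA against cauda 4-cell embryos from 1 to 0, the morula against the 4-cell stage from 2 to 1 and the blastocyst against the morula from 5 to 3. Without the label code term, GFP against cauda went to 0 and the mean of 3 blastocyst cohorts from 2 to 1. With a single mean per code and group, 4 counts went to 0: GFP against cauda, miRNA against cauda, and caput against cauda over the 4-cell cohorts and over the blastocyst cohorts. Median-ratio scaling took the blastocyst mean to 1, and a median per cohort took the morula against the 4-cell stage to 1. Without libraries of few genes, testis against cauda morulae went from 0 to 1 (Asns). The cause was not tested.

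Leaving out 1 label code or cohort gave counts of 0 to 1 for GFP against cauda, for miRNA against cauda and for the 4-cell mean, 1 to 5 for the blastocyst mean, 5 to 7 for 28 h against 18 h, 1 to 3 for the morula against the 4-cell stage and 2 to 6 for the blastocyst against the morula. Chac1 between the 4-cell stage and the morula ran from -0.30 without the second morula cohort to 1.76 without the first, against 0.73 with both. In no comparison did every pair of embryos of the same number have an r over 0.1, so the numbers were not taken to pair embryos (median r of -0.10 to 0.20 over comparisons, the highest in the fourth blastocyst cohort for miRNA against caput, with 17 of 29 pairs over 0.1), and a replicate block changed none of 28 counts, leaving 7 called for 28 h against 18 h and 2 for the blastocyst mean. The block could not be fitted for the third blastocyst cohort, whose labels give no numbers, or for stages over cohorts, and the single mean could not for the 24 h embryos, which have 1 code. TPM keeps no depth, so what depth limits is unknown.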
